A study of Homo sapiens with 2 samples.

Results

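The annexin family was followed across 3 ovarian cancer cell lines that were pooled and read as single cells with long reads. The family was taken as the 9 genes ANXA1, ANXA2, ANXA3, ANXA4, ANXA5, ANXA6, ANXA7, ANXA8 and ANXA11, found by gene name in the transcript annotation. They accounted for 9 of the 57110 gene entries and 28 of the 99493 listed transcripts. IGROV1, SK-OV-3 and COV504, established lines from ovarian tumours, were detached with trypsin and combined in equal parts with no treatment. The pool gave 1 Illumina library, of which only the barcode list was used here, and 1 PromethION library, a nanopore run that reads whole cDNA molecules. Lines were told apart by RNA markers, since no label ties a cell to a line. A barcode with at least 1000 counts was placed in the ERBB2-high line (ERBB2, NNMT, TSPAN1 and DHRS2), the RARRES2-high line (RARRES2 and TMEM100) or the FOLR1-high line (FOLR1, CLDN3, DEFB1 and CXCL14) where that marker sum held at least 75% of all marker counts. This placed 648, 472 and 765 barcodes of 2462. Some assignments rest on as little as 1 marker count, and 102, 79 and 221 of these barcodes had under 5.

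Annexins are cytosolic proteins that bind acidic phospholipids of membranes when calcium rises. They share a conserved core of repeated helical domains and differ in the N-terminal tail, which carries the contacts with partner proteins. Epithelial cells and tumours derived from them commonly express several annexins at once, and the family is known for roles in membrane repair, vesicle traffic, the surface plasminogen system and the dampening of inflammation.

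Over the 36 pairs of the 9 genes, the coding sequences of the leading transcripts (GENCODE release 29) were 32.0% to 61.1% identical after global alignment, with a median of 46.2%. Gaps count as differences in this measure, so the pairs of ANXA6, whose coding sequence is the longest, are held low by length. ANXA4 and ANXA5 were the pair with the highest identity. ANXA8 was the exception in another sense, because it has a near copy, ANXA8L1, with 99.5% coding identity. The first 45 coding bases are shown for 3 members because they encode the tail that sets the members apart, with the start codon in capitals. The ANXA1 bases (chr9:73158536-73158580, plus strand, GRCh38) and the ANXA2 bases (chr15:60386031-60386075, minus strand) each lay in 1 exon. Those of ANXA5 ran over an intron (chr4:121686337-121696589, minus strand).
ANXA1: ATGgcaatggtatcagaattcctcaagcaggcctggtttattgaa
ANXA2: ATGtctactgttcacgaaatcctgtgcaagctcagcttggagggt
ANXA5: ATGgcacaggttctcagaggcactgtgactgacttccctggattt

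Promoter sequence is shown for ANXA1, ANXA2 and ANXA4, the 3 members with the largest fold between lines with total counts. With TMM factors ANXA3 had a larger fold than ANXA1 and ANXA2. RefSeq windows of 250 bases before the transcript start (GRCh38.p14) matched 8 of the 9 genes, all but ANXA8. The window nearest the start of the leading transcript was used. Motifs searched on both strands were the TATA box (TATAAA), the GC box bound by Sp1 (GGGCGG), the CCAAT box, the AP-1 site (TGACTCA) and the TEAD site (GGAATG). Matches are in capitals, and the ones in ANXA1 here and for AP-1 in ANXA2 read from the other strand. The bases below lie before both the RefSeq start and the GENCODE start, at chr9:73151615-73151756 (plus strand), chr15:60398044-60398236 (minus strand) and chr2:69741884-69741973 (plus strand).
ANXA1: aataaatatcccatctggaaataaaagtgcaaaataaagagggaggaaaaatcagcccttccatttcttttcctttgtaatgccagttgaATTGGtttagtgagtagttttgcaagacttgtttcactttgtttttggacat
ANXA2: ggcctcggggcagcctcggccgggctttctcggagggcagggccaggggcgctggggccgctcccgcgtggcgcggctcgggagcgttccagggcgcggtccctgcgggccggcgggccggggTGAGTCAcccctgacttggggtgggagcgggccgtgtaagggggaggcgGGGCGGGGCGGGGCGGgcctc
ANXA4: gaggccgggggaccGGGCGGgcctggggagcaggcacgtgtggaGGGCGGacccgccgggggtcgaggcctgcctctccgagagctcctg
The motif TATAAA occurred in 2 of the 8 windows, ANXA1 and ANXA2, against 10.7% of all 35116 RefSeq windows of that length. In both genes it lay 31 bases before the RefSeq start but inside the leading GENCODE transcript, which begins 108 bases upstream of the RefSeq start in ANXA1 and 57 bases upstream in ANXA2. It is shown here with 10 bases on each side (chr9:73151824-73151849 and chr15:60398002-60398027).
ANXA1: tttaaaatccTATAAAatcagaagcc
ANXA2: atgtggcgggTATAAAagccccaccc
The GC box occurred in 6 of the 8 windows (42.6% of all windows), and ANXA1 and ANXA3 had none. The ANXA3 window lay wholly inside the leading GENCODE transcript, which begins 251 bases upstream of the RefSeq start. All motif matches of ANXA5 and ANXA6 also lay inside their leading transcripts. The CCAAT box occurred in 3 (32.0% of all), the AP-1 site in ANXA2 alone (4.2% of all) and the TEAD site in 0 (11.9% of all). The ANXA1 window was 38.4% G and C, against 78.0% for ANXA2 and 71.6% for ANXA4. These matches describe letters in the windows and say nothing of factor binding in these cells.

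The PromethION matrix held 13052893 estimated counts, and the median depth of a cell was 4953 counts in the ERBB2-high line, 6261.5 in the RARRES2-high line and 5289 in the FOLR1-high line. Mitochondrial genes took 2.93%, 3.11% and 7.07% of the counts in that order. A further 244 barcodes with enough counts did not meet the marker rule, and 13.5% of all barcodes had under 1000 counts. How depth and mitochondrial share bear on the line differences was not tested. Check genes outside the rule were read for the labels. MIEN1 and STARD3, neighbours of ERBB2, were at 528 and 214 CPM in the ERBB2-high line and at no more than 143 and 22.3 CPM in the others, and amplification of ERBB2 is known in SK-OV-3. GRB7, also a neighbour, was at 56.4 CPM there and at 28.8 CPM in the FOLR1-high line. CDKN2A, a check gene planned to be absent in SK-OV-3, had 1, 0 and 88 counts in the ERBB2-high, RARRES2-high and FOLR1-high lines. It thus did not separate the first 2. Of the epithelial check genes, PAX8, EPCAM, KRT8 and KRT18 had at least 125 counts in each line. In the same order of lines, KRT7 had 321, 2327 and 31 counts, CDH1 had 29, 143 and 11, and ESRP1 had 0, 30 and 4. PTPRC, CD3E, COL1A2 and PECAM1, markers of other cell types, were between 0 and 45 counts in each line. Neither of the other lines could be tied to IGROV1 or COV504. With 1 library there is no test, and cells are not replicates. Levels are counts per 1000000 counts of a line (CPM). Each interval is a 95% interval and covers counting error only, since no source used here tells how molecular identifiers were treated.

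Annexin RNA was abundant in all 3 lines, but its make-up differed. The 9 genes together made 4524 CPM in the ERBB2-high line, 4586 CPM in the RARRES2-high line and 2459 CPM in the FOLR1-high line. ANXA2 alone gave 57.2% of the annexin counts of the RARRES2-high line, against 33.9% in the ERBB2-high line and 2775 of 11102 counts in the FOLR1-high line. ANXA4 gave 25.1% of them in the FOLR1-high line and 15.2% in the ERBB2-high line, but 1.87% in the RARRES2-high line. ANXA1 contributed 28.0%, 19.5% and 12.9% in the ERBB2-high, RARRES2-high and FOLR1-high lines.

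**Figure D1:**
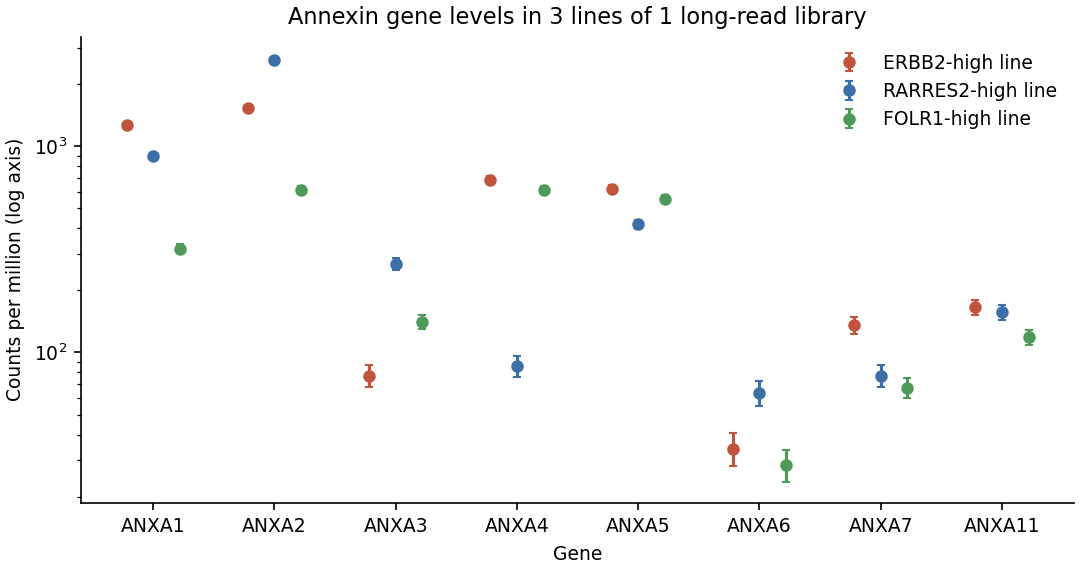
Level of 8 annexin genes in each line, in CPM on a log axis. Points are sums over the cells of a line in 1 library, and bars are 95% Poisson intervals for counting error. ANXA4 is at 85.5 in the RARRES2-high line and above 600 in the other lines, while ANXA1 and ANXA2 are lowest in the FOLR1-high line.

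A gene was counted as different between lines where the CPM ratio reached 2 in either direction and both lines together held at least 50 counts. Of the 9 members, 8 had enough counts in every pair, and ANXA8 did not. Between the ERBB2-high and RARRES2-high lines, 2 of the 8 passed, ANXA4 and ANXA3, against 34.2% of the 9131 genes compared. Between the ERBB2-high and FOLR1-high lines, 3 passed, ANXA1, ANXA2 and ANXA7, against 35.3% of 9237 genes. Between the RARRES2-high and FOLR1-high lines, 4 passed, ANXA1, ANXA2, ANXA4 and ANXA6, against 34.7% of 9095 genes. By direction, 1 member was higher in the ERBB2-high line (21.2% of all genes) and 1 in the RARRES2-high line (13.0%) in the first pair. In the second pair 3 were higher in the ERBB2-high line (26.0%) and 0 in the FOLR1-high line (9.36%). In the last pair 3 were higher in the RARRES2-high line (21.8%) and 1 in the FOLR1-high line (12.9%). At a limit of 1.5-fold, 5, 4 and 5 members passed in these pairs (55.9%, 58.2% and 55.4% of all genes), and at 3-fold 2, 1 and 2 (16.5%, 16.8% and 18.6%). The members' share was therefore near that of all genes, and the differences below are described gene by gene. The median absolute log2 ratio of the 8 members was 0.79, 0.68 and 1.05 for the 3 pairs, against 0.69, 0.72 and 0.68 over all genes. The pairs share lines, so their counts are not independent.

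Scaling mattered for several members. Over all genes compared, the median log2 ratio was 0.21 towards the ERBB2-high line against the RARRES2-high line, 0.45 towards it against the FOLR1-high line, and 0.20 towards the RARRES2-high line against the FOLR1-high line. TMM factors, which centre the typical gene, moved these ratios by -0.22, -0.41 and -0.19 on the log2 scale. Among all genes past 2-fold, 61.9%, 73.5% and 62.8% were higher in the first line of each pair with total counts, and 48.1%, 50.5% and 52.0% with TMM factors. With those factors ANXA4, ANXA3 and ANXA6 passed in the first pair (32.1% of all genes), ANXA1 and ANXA3 in the second (30.2%), and ANXA1, ANXA2 and ANXA4 in the third (33.6%). With median-of-ratios size factors 4, 2 and 3 members passed (32.1%, 29.9% and 33.5% of all genes). With totals that leave out mitochondrial and ribosomal protein genes 2, 2 and 3 passed (33.8%, 30.3% and 34.3%). ANXA4 and ANXA3 in the first pair, ANXA1 in the second, and ANXA1, ANXA2 and ANXA4 in the third passed under all 4 scalings.

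**Figure D2:**
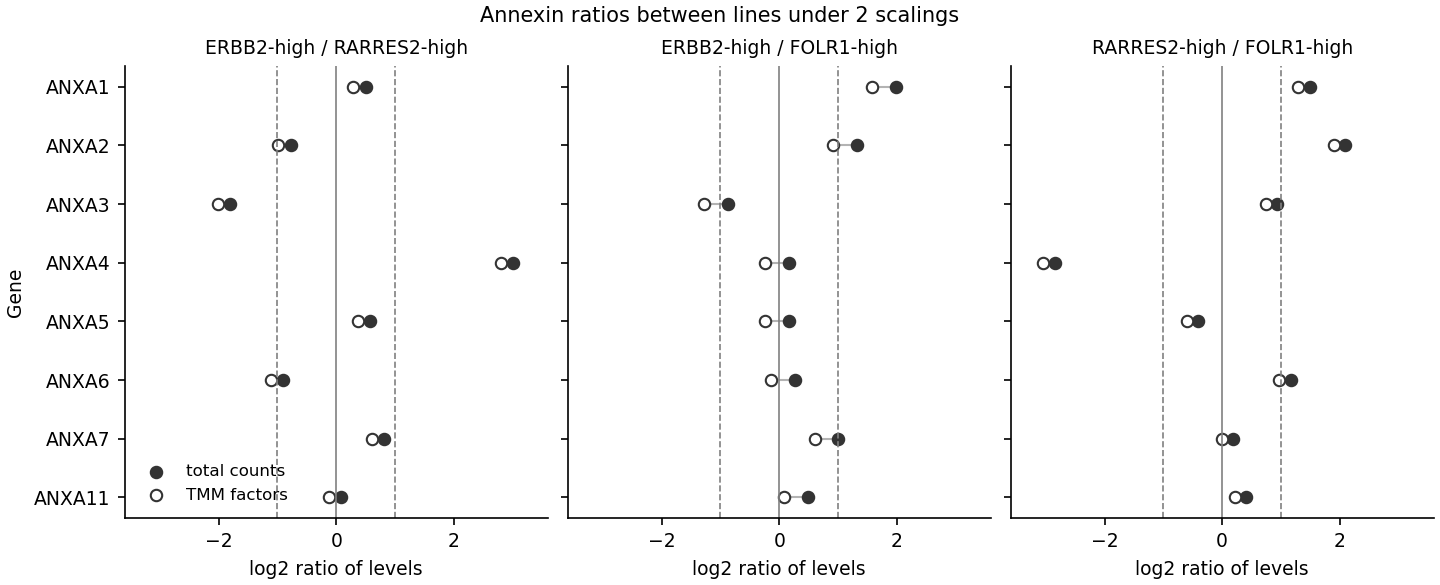
Log2 ratio of the level of 8 annexins for each pair of lines, first line over second. Filled points use total counts and open points TMM factors, and dashed lines mark 2-fold. ANXA4 lies far from 0 in both pairs with the RARRES2-high line, and the open points of ANXA2 and ANXA7 fall inside 2-fold in the middle panel.

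ANXA1 encodes a protein whose tail peptides act on formyl peptide receptors and restrain neutrophil recruitment. Its gene lies on the plus strand at chr9:73151757-73170393 (ENSG00000135046). The level was 1265 CPM (interval 1228 to 1303, 4355 counts) in the ERBB2-high line, 894 CPM (862 to 926, 3009 counts) in the RARRES2-high line and 318 CPM (302 to 335, 1437 counts) in the FOLR1-high line. All 3 intervals stood apart. ANXA1 was 3.97-fold higher (interval 3.74 to 4.22) in the ERBB2-high line than in the FOLR1-high line, and 2.998-fold higher with TMM factors. It was 2.81-fold higher in the RARRES2-high line than in the FOLR1-high line (2.46-fold with TMM factors). Counts per cell ran from 0 through a median of 6 to 41 in the ERBB2-high line. They ran from 0 through a median of 5 to 35 in the RARRES2-high line, and from 0 through a median of 1 to 63 in the FOLR1-high line. The line with the lowest level thus held the cell with the most ANXA1 counts. FPR1 and FPR2, the receptors for ANXA1 peptides, were at 1 and 0 counts over the 3 lines.

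ANXA2 encodes the annexin that joins S100A10 in a tetramer at the plasma membrane, where plasminogen is activated. It lies on the minus strand at chr15:60347134-60398043 (ENSG00000182718). Its level was 2622 CPM (interval 2568 to 2678, 8829 counts) in the RARRES2-high line, 1534 CPM (1492 to 1575, 5279 counts) in the ERBB2-high line and 615 CPM (592 to 638, 2775 counts) in the FOLR1-high line. ANXA2 was 4.27-fold higher in the RARRES2-high line than in the FOLR1-high line and 3.74-fold higher with TMM factors. Against the FOLR1-high line the ERBB2-high line was 2.50-fold higher (interval 2.38 to 2.61), but 1.88-fold with TMM factors, which is under the limit. Cells of the RARRES2-high line had 0 to 101 counts with a median of 16, those of the ERBB2-high line 0 to 41 with a median of 7, and those of the FOLR1-high line 0 to 38 with a median of 3. ANXA2 has processed pseudogenes, and how far reads were shared with them was not tested.

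S100A10, the light chain of that tetramer, followed ANXA2 in its order over the lines. It was at 3073 CPM in the RARRES2-high line, 2053 CPM in the ERBB2-high line and 787 CPM in the FOLR1-high line. The number of S100A10 counts per ANXA2 count was 1.17 (interval 1.14 to 1.21), 1.34 (1.29 to 1.39) and 1.28 (1.22 to 1.35) in those lines. The interval of the RARRES2-high line lay below those of both other lines, which overlapped.

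ANXA3 encodes a phospholipid-binding annexin found in neutrophils and several epithelia. The gene is at chr4:78551519-78610421, plus strand (ENSG00000138772). It was at 269 CPM (interval 252 to 288, 907 counts) in the RARRES2-high line, 141 CPM (130 to 152, 636 counts) in the FOLR1-high line and 77.3 CPM (68.3 to 87.1, 266 counts) in the ERBB2-high line. The RARRES2-high line was 3.49-fold above the ERBB2-high line (interval 3.04 to 4.01), and 4.05-fold with TMM factors. It was 1.91-fold above the FOLR1-high line (interval 1.73 to 2.12), and 1.67-fold with TMM factors. With the mean of single cells' CPM that pair passed for ANXA3, and 5 members passed in all (34.6% of all genes). ANXA3 was 1.82-fold higher in the FOLR1-high line than in the ERBB2-high line, and 2.42-fold with TMM factors, so this pair passed only with factors that centre the typical gene or with totals that leave out mitochondrial and ribosomal protein genes. No cell of the ERBB2-high line had more than 5 ANXA3 counts, while the highest cell of the RARRES2-high line had 14.

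ANXA4 encodes an annexin abundant in epithelia and studied in clear cell ovarian carcinoma. It had the largest difference of the 8 members. The gene lies at chr2:69741974-69827100, plus strand (ENSG00000196975). The level was 689 CPM (interval 662 to 717, 2372 counts) in the ERBB2-high line, 616 CPM (593 to 640, 2782 counts) in the FOLR1-high line and 85.5 CPM (75.9 to 96.0, 288 counts) in the RARRES2-high line. The RARRES2-high line was thus 8.06-fold below the ERBB2-high line (interval 7.13 to 9.14) and 7.203-fold below the FOLR1-high line. With TMM factors the folds were 6.94 and 8.23. The order of the ERBB2-high and FOLR1-high lines was not settled, since the ERBB2-high line was 1.12-fold higher with total counts and 1.19-fold lower with TMM factors. A median of 3 ANXA4 counts per cell was found in both of these lines, with a highest cell of 23 and 25, while the RARRES2-high line had a median of 0 and a highest cell of 7. The RARRES2-high line was thus the highest of the 3 lines for ANXA2 and the lowest for ANXA4.

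ANXA5, known as the probe for phosphatidylserine on dying cells, differed least among the abundant members. It lies at chr4:121667955-121697113, minus strand (ENSG00000164111). Its level was 623 CPM (interval 597 to 650, 2144 counts) in the ERBB2-high line, 555 CPM (534 to 577, 2506 counts) in the FOLR1-high line and 417 CPM (396 to 440, 1405 counts) in the RARRES2-high line. No pair reached 2-fold. With total counts the largest fold was 1.49 between the ERBB2-high and RARRES2-high lines, and with TMM factors it was 1.52 between the FOLR1-high and RARRES2-high lines. The ERBB2-high and FOLR1-high lines changed order with TMM factors. Cells of all 3 lines had a median of 3 ANXA5 counts, with highest cells of 17, 12 and 18.

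ANXA6, an annexin with a duplicated core that is found at endosomes and the plasma membrane, was the least counted of the 8. The gene is at chr5:151101105-151157882, minus strand (ENSG00000197043). It was at 63.6 CPM (interval 55.3 to 72.7, 214 counts) in the RARRES2-high line, 34.0 CPM (28.1 to 40.7, 117 counts) in the ERBB2-high line and 28.3 CPM (23.7 to 33.7, 128 counts) in the FOLR1-high line. The RARRES2-high line stood above both, while the intervals of the other lines overlapped. It was 2.24-fold above the FOLR1-high line, and 1.96-fold with TMM factors. Against the ERBB2-high line it was 1.87-fold higher with total counts and 2.17-fold higher with TMM factors.

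ANXA7 and ANXA11 are the members with long, disordered N-terminal tails. ANXA7 takes part in vesicle fusion and binds sorcin (SRI), and ANXA11 binds PDCD6 and links RNA granules to lysosomes. ANXA7 (chr10:73375101-73414067, minus strand, ENSG00000138279) was at 135 CPM (interval 123 to 148, 466 counts) in the ERBB2-high line, 76.9 CPM (67.8 to 86.9) in the RARRES2-high line and 67.3 CPM (60.0 to 75.3) in the FOLR1-high line. The last 2 overlapped. ANXA7 stood just past the limit between the ERBB2-high and FOLR1-high lines, at 2.01-fold (interval 1.74 to 2.33), and was 1.52-fold with TMM factors. It was 1.95-fold when barcodes were assigned by a marker share over 50%, an alternative chosen after seeing the data. ANXA11 (chr10:80150889-80205572, minus strand, ENSG00000122359) was at 166, 157 and 118 CPM in the ERBB2-high, RARRES2-high and FOLR1-high lines, from 571, 527 and 534 counts. The intervals of the first 2 overlapped, and no pair reached 2-fold. The ERBB2-high line was above the RARRES2-high line by 1.06-fold with total counts and 1.10-fold below it with TMM factors. SRI was at 204, 142 and 191 CPM and PDCD6 at 95.0, 102 and 81.1 CPM, with no pair of lines past 2-fold for either.

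ANXA8 was near the detection limit. It had 3 counts in the ERBB2-high line, 1 in the RARRES2-high line and 0 in the FOLR1-high line, where 3 counts would be 0.664 CPM. The joined entry that contains ANXA8L1 had 5, 1 and 0 counts. Because the copies are nearly identical, these counts cannot be tied to ANXA8 with certainty, and no fold is given. The other family genes were also too low to compare, with 8, 0 and 3 counts for ANXA9, 11, 0 and 0 for ANXA10 and 0, 0 and 4 for ANXA13.

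Detection per cell was compared with every cell thinned to 2000 counts, which left out shallower cells and kept 606, 442 and 733 cells. ANXA1 was found in 87.1% of ERBB2-high cells, 78.7% of RARRES2-high cells and 34.8% of FOLR1-high cells. ANXA4 was found in 69.3%, 15.2% and 62.5% of them, and ANXA3 in 12.0%, 38.9% and 19.9%. ANXA2 was found in 92.7%, 98.0% and 64.0%. These shares move with the depth chosen. At 1000 counts per cell ANXA4 was found in 7.203% of RARRES2-high cells and ANXA1 in 21.4% of FOLR1-high cells, and at 3000 counts in 22.6% and 46.9%. Without thinning the shares were 97.8%, 94.3% and 54.4% for ANXA1 and 88.6%, 37.9% and 81.7% for ANXA4. As a gauge of RNA that drifts between cells, FOLR1 was found in 1.13% of the thinned RARRES2-high cells and 6.60% of the ERBB2-high cells. RARRES2 was found in 6.93% of ERBB2-high cells and 0.273% of FOLR1-high cells. DHRS2 was found in 0 of the 442 and 0 of the 733 cells of the other lines. Other markers of those lines were higher in the RARRES2-high line, with CLDN3 at 77.8 CPM and NNMT at 56.1 CPM over all its cells. These marker genes belong to the rule that separates the lines, so the gauge is low by construction. They set no level that drifting RNA could not reach, so the part of such RNA in the 15.2% of RARRES2-high cells with ANXA4 (interval 11.9 to 18.8%) was not tested. ANXA6 was found in 7.26%, 11.5% and 5.18% of the cells.

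**Figure D3:**
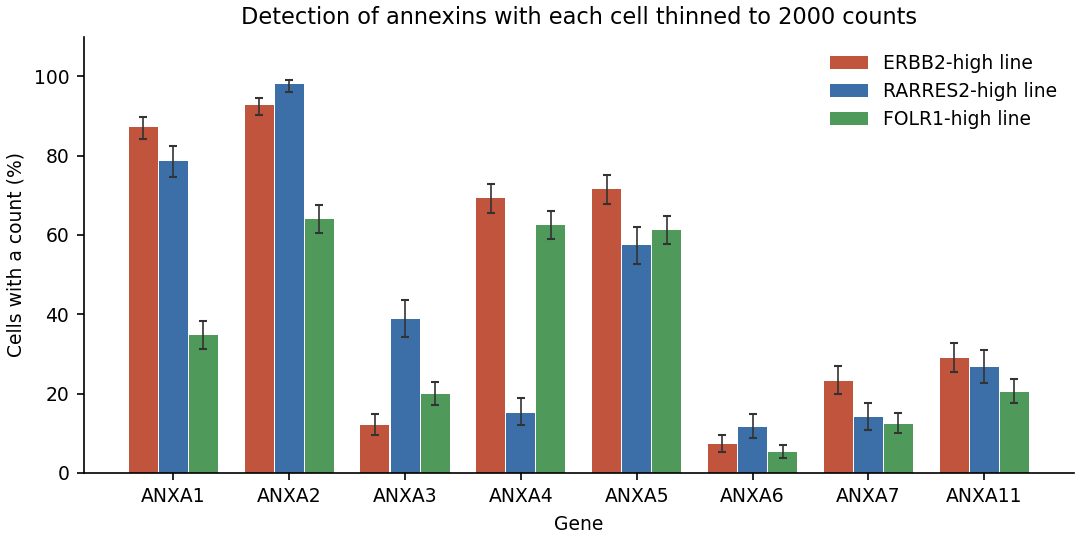
Share of cells with at least 1 count of each annexin after every cell was thinned to 2000 counts, by line. Bars start at 0 and error bars are exact 95% binomial intervals. ANXA4 stands at 15.2% in the RARRES2-high line, and ANXA1 at 34.8% in the FOLR1-high line.

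Long reads also showed which transcripts each gene used. A gene was counted where the share of 1 transcript differed by at least 20 percentage points between lines that each held at least 50 of its counts. None of the 8 members tested passed in any pair, against 1.88%, 1.72% and 2.56% of all genes. ANXA7 has 1 listed transcript and could not pass. The other 7 stand against 2.43%, 2.21% and 3.3% of genes with at least 2 listed transcripts. With shares this low, a count of 0 says little about the family. The widest difference among the members was 6.74 points, in ANXA6. Counts were often split between transcripts of a gene, so the shares are estimates. Positions and exons below are those of GENCODE release 29 (GRCh38).

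The leading transcript of ANXA1 (ENST00000257497) held 96.7%, 97.5% and 96.0% of the gene's counts in the ERBB2-high, RARRES2-high and FOLR1-high lines. The leading transcripts of ANXA3 (ENST00000264908, 92.5%, 97.2% and 95.9%) and ANXA5 (ENST00000296511, 99.1%, 99.1% and 99.3%) also held most counts. ANXA7 had 1 listed transcript. In ANXA2, ENST00000451270 held 88.8%, 82.9% and 87.6%. A second form, ENST00000421017, held 8.84% (interval 8.09 to 9.64%), 14.3% (13.6 to 15.1%) and 8.79% (7.76 to 9.90%). It has the same coding length of 1017 bases and carries an extra 81-base exon of the 5′ untranslated region at chr15:60397258-60397338. Its share was highest in the RARRES2-high line, the line with the most ANXA2. In cells with 1 ANXA2 count the shares were 13.6%, 0% and 12.4%, with only 3 cells in the RARRES2-high line, and in cells with 2 to 4 counts they were 9.78%, 21.5% and 8.93%. In cells with 5 to 14 ANXA2 counts the shares were 8.36%, 13.9% and 7.53%. In cells with 15 or more counts they were 9.76%, 14.3% and 12.8%, the last from 15 cells. Matrix entries that were whole numbers made up only 3.91%, 1.28% and 18.2% of the counts of the leading ANXA2 transcript in the 3 lines.

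ANXA4 used a long coding form almost alone. ENST00000394295 held 97.8%, 94.7% and 98.4% of the counts, and ENST00000409920, which lacks 66 coding bases, held 2.22%, 5.27% and 1.63%. The 5.27% came from 15.2 of 288 counts (interval 2.99 to 8.52%). The 66 bases lie at chr2:69806433-69806498 (plus strand) and are printed because they are the coding difference between the forms.
ANXA4: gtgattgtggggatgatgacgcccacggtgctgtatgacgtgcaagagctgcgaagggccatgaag

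Estimated ANXA6 counts were spread over 4 forms. Whole-number matrix entries made up 0% of the counts of ENST00000523714 and ENST00000377751 in each line. The shares of these 2 forms thus rest on fractional entries alone. ENST00000354546 held 54.3%, 61.0% and 56.5% in the 3 lines, ENST00000523714 held 20.8%, 18.8% and 22.9%, ENST00000377751 held 12.1%, 12.5% and 12.1%, and ENST00000521512 held 12.9%, 7.70% and 8.46%. The first 3 include an 18-base coding exon at chr5:151110627-151110644 (minus strand), which the last skips. Together they made up 87.1% (interval 79.7 to 92.6%), 92.3% (87.9 to 95.5%) and 91.5% (85.3 to 95.7%) of the counts, and these intervals overlapped. The exon is printed because ENST00000521512 alone skips it. It is not the only difference, since the forms also differ in other exons. In the order named above, their coding lengths are 2019, 1923, 990 and 1380 bases.
ANXA6: gtggctgctgagatcttg

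ANXA11 was divided more evenly, also over 4 forms, and none held more than 40.3%. ENST00000422982 held 35.7%, 37.5% and 40.3%, ENST00000372231 held 34.4%, 36.6% and 30.4%, ENST00000438331 held 16.2%, 15.4% and 18.6%, and ENST00000265447 held 13.7%, 10.5% and 10.6%. The forms with a long last exon took 50.6%, 52.0% and 49.1%, with overlapping intervals. ENST00000265447 has a coding length of 1416 bases against 1515 in the other forms.

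**Figure D4:**
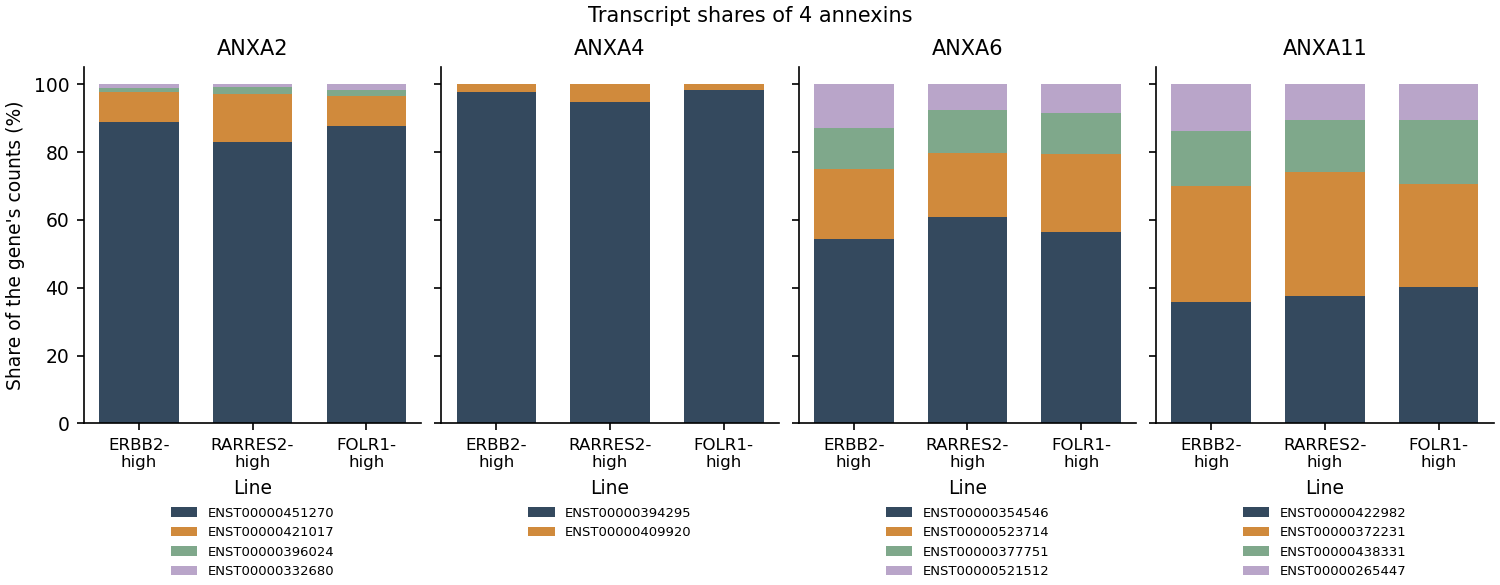
Share of each gene's counts held by its listed transcripts in the 3 lines, in percent, for ANXA2, ANXA4, ANXA6 and ANXA11. Stacked bars add to 100%, and colours are the transcripts named under each panel. ANXA4 is almost all ENST00000394295, while ANXA11 is split over 4 forms in every line.

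The FOLR1-high line was not uniform in its annexins. Cells were compared where CXCL14, a chemokine, or DEFB1, a defensin, held at least 75% of the counts of both genes, with at least 2 such counts. This gave 217 CXCL14 cells and 130 DEFB1 cells, and 418 cells of the line met neither rule. Of the 8 members with at least 50 counts over both groups, 5 passed 2-fold, and all 5 were lower in CXCL14 cells. In all, 10.2% of the 4460 genes compared passed in either direction and 6.55% were higher in DEFB1 cells. The median log2 ratio of CXCL14 to DEFB1 cells was -1.06 over the 8 members and -0.04 over all genes. With ratios centred on the median gene, 4 members passed, without ANXA2, against 9.83% of all genes.

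ANXA1 was at 95.2 CPM (interval 78.4 to 114, 113 counts) in CXCL14 cells, 387 CPM in the cells of neither group and 427 CPM (385 to 472, 383 counts) in DEFB1 cells. DEFB1 cells were 4.49-fold higher than CXCL14 cells (interval 3.63 to 5.58). ANXA3 was at 60.6, 148 and 227 CPM over the same groups, and ANXA4 at 315, 618 and 1011 CPM. The ANXA4 difference was 3.21-fold (interval 2.84 to 3.63). ANXA11 was at 72.4 CPM in CXCL14 cells and 156 CPM in DEFB1 cells, and ANXA2 at 380 CPM and 762 CPM, a 2.01-fold difference (interval 1.78 to 2.27) that was just past the limit. ANXA5 was at 547 CPM in CXCL14 cells and 534 CPM in DEFB1 cells, with overlapping intervals. ANXA7 (53.9 and 84.7 CPM) and ANXA6 (26.1 and 36.8 CPM) did not reach 2-fold. Cells of both groups overlapped for every member, since the lowest cell of each group had 0 counts. The median cell had 0 and 2 counts of ANXA1 and 1 and 6 counts of ANXA4 in CXCL14 and DEFB1 cells.

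S100A10 moved more than ANXA2 between these groups. It was at 340 CPM in CXCL14 cells and 1043 CPM in DEFB1 cells, and the number of S100A10 counts per ANXA2 count was 0.896 (interval 0.781 to 1.03) and 1.37 (1.24 to 1.51). S100A11, a partner of ANXA1, was at 1356 and 2881 CPM, and the hyaluronan receptor CD44 at 15.2 and 158 CPM. The median depth was 4939 counts in CXCL14 cells and 6227.5 in DEFB1 cells, and mitochondrial genes took 7.17% and 6.62% of the counts. Their part in the differences was not tested.

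**Figure D5:**
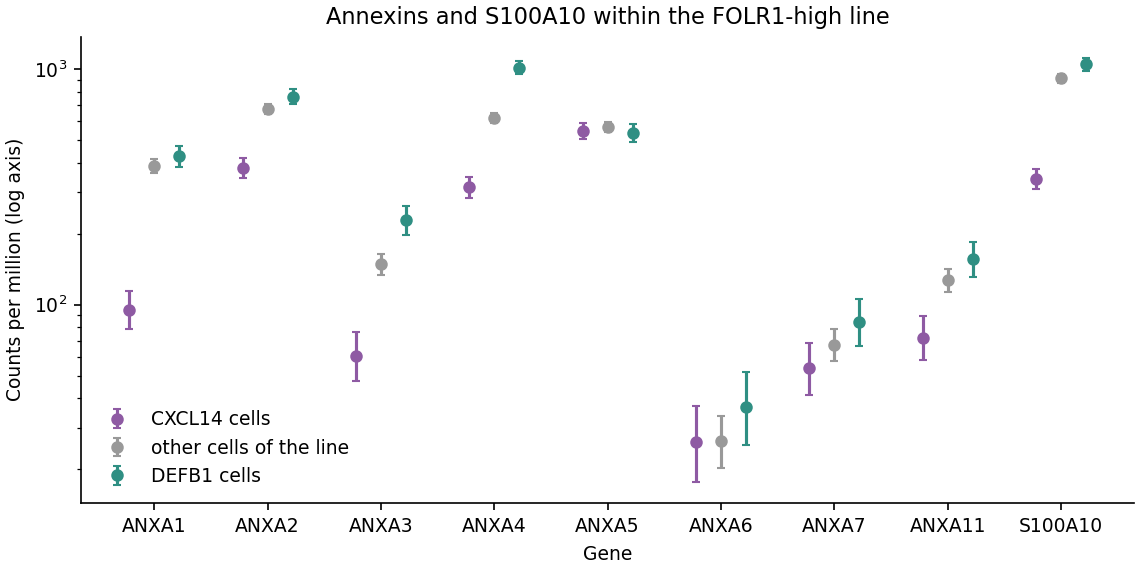
Level of 8 annexins and S100A10 in 3 groups of cells of the FOLR1-high line, in CPM on a log axis. Points are sums over cells and bars are 95% Poisson intervals for counting error. ANXA1, ANXA3 and ANXA4 are lowest in CXCL14 cells and highest in DEFB1 cells, and ANXA5 lies between 534 and 567 in each group.

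Cells with many G2/M transcripts were compared with cells low in them within each line. Cells in the top 25% by share of 12 G2/M genes, such as TOP2A, were set against the lower 50% of the same line. Of the 8 members with enough counts, 0 reached 2-fold in any line, against 6.95% of genes in the ERBB2-high line, 3.64% in the RARRES2-high line and 6.18% in the FOLR1-high line. TOP2A, one of the genes that set the groups, differed 264-fold in the ERBB2-high line, 4.54-fold in the RARRES2-high line and 29.5-fold in the FOLR1-high line, which describes the split and is no result. ANXA4 was at 509 CPM in ERBB2-high cells high in G2/M genes and 792 CPM in those low in them, a ratio of 0.643 (interval 0.580 to 0.711). Its ratio was 0.786 (0.586 to 1.05) in the RARRES2-high line and 0.876 (0.800 to 0.959) in the FOLR1-high line. With the top 10% of cells the RARRES2-high values were 0.581 (0.357 to 0.906) for ANXA4 and 1.29 (1.05 to 1.57) for ANXA3, and these intervals no longer include 1. ANXA1 had ratios of 0.752 (0.699 to 0.808) in the ERBB2-high line, 1.04 (0.955 to 1.13) in the RARRES2-high line and 0.702 (0.618 to 0.798) in the FOLR1-high line. ANXA3 was at 105 CPM against 64.9 CPM in the ERBB2-high line, a ratio of 1.62 (1.22 to 2.14), and had ratios of 1.06 (0.905 to 1.24) in the RARRES2-high line and 1.41 (1.17 to 1.70) in the FOLR1-high line. ANXA5 lay between 0.904 and 0.995 in the 3 lines. Cells high in G2/M genes were also deeper, with a median of 6712.5 against 4523 counts in the ERBB2-high line, and the part of depth in these ratios was not tested.

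Genes that work with annexins were read from lists of partners, membrane repair genes and other calcium-dependent lipid binders. Of 11 partners, 7 had enough counts. In the first pair, ERBB2-high against RARRES2-high, 0 passed 2-fold, against 34.2% of all genes, and the largest fold was the 1.59-fold excess of AHNAK, a scaffold of the S100A10 tetramer, in the RARRES2-high line. S100A10 and S100A6 passed between the ERBB2-high and FOLR1-high lines, and S100A10, S100A6 and AHNAK between the RARRES2-high and FOLR1-high lines, all lower in the FOLR1-high line. Of all genes, 26.0% and 21.8% passed in that direction in these pairs. S100A6, which binds several annexins, was at 14705, 9502 and 1727 CPM in the ERBB2-high, RARRES2-high and FOLR1-high lines. It was 8.52-fold higher in the ERBB2-high line than in the FOLR1-high line, and 6.42-fold with TMM factors. With those factors S100A10 was under the limit in that pair, at 1.97-fold. AHNAK fell under it in the last pair, at 1.96-fold, with totals that leave out mitochondrial and ribosomal protein genes.

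Of 10 membrane repair genes, 9 had enough counts. EHD2, an ATPase at caveolae, was at 80.2 CPM in the ERBB2-high line, 33.9 CPM in the RARRES2-high line and 3.99 CPM (18 counts) in the FOLR1-high line. CAPN2, a calpain that acts in wound resealing, was at 190 CPM in the RARRES2-high line, 65.9 CPM in the ERBB2-high line and 38.3 CPM in the FOLR1-high line. Between the first 2 lines EHD2 was higher in the ERBB2-high line, and MYOF, CAPN1 and CAPN2 were higher in the RARRES2-high line, 4 of 9 in all against 34.2% of all genes. Against the FOLR1-high line, 5 of the 9 were higher in the ERBB2-high line (CAPNS1, CHMP4B, VPS4B, EHD2 and SMPD1) and 7 in the RARRES2-high line (these 5 with CAPN1 and CAPN2), and 0 were lower, against 26.0% and 21.8% of all genes higher in these lines. With TMM factors these counts were 4 higher with 1 lower, and 4 higher with 0 lower, against 30.2% and 33.6% of all genes past 2-fold in either direction with those factors. With median-of-ratios size factors 3 were higher and 1 lower in the ERBB2-high line against the FOLR1-high line (29.9% of all genes), and EHD2 was under the limit between the first lines, at 1.99-fold. Of 7 copines and extended synaptotagmins, 5 had enough counts. CPNE3 and CPNE8 were higher in the ERBB2-high line than in the RARRES2-high line, ESYT2 was lower in the FOLR1-high line than in both others, and CPNE8 was higher in the FOLR1-high line than in the RARRES2-high line. These are 2, 1 and 2 of 5 genes in the 3 pairs, against 34.2%, 35.3% and 34.7% of all genes. With TMM factors 1, 0 and 0 of these genes were higher in the first line of the pairs and 0, 1 and 1 in the second, against 32.1%, 30.2% and 33.6% of all genes in either direction. CPNE8 had 54, 1 and 113 counts in the ERBB2-high, RARRES2-high and FOLR1-high lines.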

How the data were processed

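The authors deposited estimated counts per transcript and cell barcode for the PromethION library, not normalised. Per the submitters' processing notes, Cell Ranger 6.0.1 and GRCh38 were used. The design text names Isosceles, a long-read quantification package. No source used here names the aligner, the package version or the annotation release, or tells how molecular identifiers were treated. All 2462 barcodes were also in the Illumina list, whose expression values were not analysed here.

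Estimated counts were summed per gene entry and line, rounded to whole numbers, and divided by the line's total (CPM). Of the gene entries, 722 join several genes and were left out of transcript shares. Exons came from GENCODE release 29, matched by identifier. Intervals were exact Poisson, exact Clopper-Pearson or, for ratios, exact conditional, at 95% (scipy 1.17.1). TMM factors came from edgeR 4.0.16, with no edgeR test. Doublets were kept. Scrublet (scanpy 1.11.5) called 77 barcodes, of which 10, 11 and 9 lay in the 3 lines, and leaving these out was an alternative. The code for CPM ratios and 2-fold calls was tested on simulated data, apart from the comparisons themselves, which have no test. A single library gives no replicate.

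All 9 members are named, with transcripts of at least 5% of a gene in any line, list genes past 2-fold in any pair, and the 3 genes with the highest correlation to a member. ANXA8L1 and CPNE1 have no entry of their own. CD44, the low annexins, and partners that did not pass 2-fold (S100A11, SRI, PDCD6, FPR1 and FPR2) were added after their values were seen, as were the figure's transcripts under 5%. Likeness was read from log1p counts after thinning to 2000, for members whose mean before thinning was at least 1 count per cell in every line. The members and lists were chosen with earlier results of these data known.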

Additional observations from a re-analysis of the deposited data

How the results depend on the processing

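Counts of members past 2-fold stayed within 1.5 times the reported count under 38 of 42 alternatives. Single values were less stable, as 70 of 240 ratios between lines, 64 of 270 CPM levels and 47 of 54 detection shares moved beyond their intervals, and 0 called values changed direction. Between the ERBB2-high and RARRES2-high lines the count of 2 became 4 with median-of-ratios size factors (ANXA2 and ANXA6 added) and 5 at a limit of 1.5-fold. At a limit of 3-fold the count was 1 between the ERBB2-high and FOLR1-high lines (ANXA1) and 2 between the RARRES2-high and FOLR1-high lines (ANXA2 and ANXA4). ANXA2 and ANXA7 between the ERBB2-high and FOLR1-high lines fell to 1.84-fold and 1.48-fold with median-of-ratios size factors, and ANXA6 between the RARRES2-high and FOLR1-high lines to 1.80-fold with totals that leave out mitochondrial and ribosomal protein genes. Members that did not pass and whose ratio crossed 1 under some alternative were ANXA11 (ERBB2-high and RARRES2-high lines), ANXA4, ANXA5 and ANXA6 (ERBB2-high and FOLR1-high lines) and ANXA7 (RARRES2-high and FOLR1-high lines). Without a minimum count ANXA8 also passed in all 3 pairs, from 4 counts in all, where 51.6%, 51.6% and 52.7% of all genes passed. For transcript shares, 29 of 30 alternatives kept the count of 0. With whole matrix entries alone, 1 member passed between the RARRES2-high and FOLR1-high lines, ANXA2, and the cause was not tested. The share of all genes passing in that setting is not given here, so ANXA2 cannot be called unusual. All 8 ratios between CXCL14 and DEFB1 cells moved by less than their intervals with a limit of 90%. That limit kept 214 of the 217 CXCL14 cells and 129 of the 130 DEFB1 cells. The ratios could therefore hardly move, and this alternative says little of their stability. Of 24 G2/M ratios, 3 moved beyond their intervals when the top 10% of cells was used, namely ANXA3 in the RARRES2-high line (1.29) and ANXA4 in the ERBB2-high (0.556) and RARRES2-high (0.581) lines. No paired analysis was possible because a single library stands behind every line and nothing was tested. Alternatives picked once the data had been seen were assignment by the largest marker sum, for levels and for transcript shares, and a minimum of 5 marker counts. Depth limits ANXA6 and ANXA8 most.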

Other observations

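Across cells, ANXA1, ANXA2 and ANXA5 had enough counts for a description of the genes that varied most like them, among 1119 candidates and with every cell thinned to 2000 counts. The genes nearest ANXA1 were KRT19, a keratin (mean Pearson r over the 3 lines 0.207), SPP1 (0.188) and TMSB4X (0.147). Those nearest ANXA2 were the thymosins TMSB4X (0.212) and TMSB10 (0.206) and the actin gene ACTG1 (0.189). Those nearest ANXA5 were ASPH (0.0894), PRDX1 (0.0879) and RAP1B (0.0808). All of these are weak values in sparse counts from cells that share 1 library, and the median candidate was near 0.01 for each. ANXA2 had its highest values in the FOLR1-high line, at 0.387 with TMSB4X against 0.157 and 0.0912, and at 0.317 with TMSB10 against 0.192 and 0.109 in the ERBB2-high and RARRES2-high lines. The value for ANXA1 and TMSB4X came mostly from the FOLR1-high line, at 0.379 there against 0.0362 and 0.0254 in the ERBB2-high and RARRES2-high lines. ANXA1 in the FOLR1-high line was also the most uneven of the members. Its variance to mean ratio was 2.05 at equal depth, against 1.52 in each of the other lines. The median was 1.05 over the 2494 genes of the FOLR1-high line with a mean of at least 0.1 counts. ANXA1 had a mean of 0.592 there, and genes of like mean were not compared.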
